A study of Mus musculus with 12 samples.

Results

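The genes described here are 10 genes of resident macrophages that lie along blood vessels: Folr2, Cd163, Mrc1, Lyve1, Stab1, F13a1, Cbr2, Maf, Gas6 and Fcna. They are known markers of that macrophage state and were chosen with earlier results of these data in view, so their counts beside those of all genes are a description and not independent evidence. Each was read from the brightest array probe that carries its symbol and no other. All 10 had such a probe, among 22180 genes that had one, and all 10 were bright enough to enter the test, as were 12710 genes in all. RNA was measured on Affymetrix mouse gene arrays in epididymal white fat (the pad beside the testis), inguinal white fat (a pad under the skin) and liver. Each tissue was taken from male Mgl2-DTR mice and from male wild-type mice of matched age, both on the C57BL/6N background. In Mgl2-DTR mice the receptor for diphtheria toxin is expressed where Mgl2 is, which encodes the lectin CD301b, and toxin therefore kills mononuclear phagocytes with CD301b on their surface. Mice of both genotypes received diphtheria toxin, 500 ng per dose by intraperitoneal injection at intervals of 3 days, and the tissues were collected on day 10. The 6 groups had 2 arrays each, 12 altogether, and no group went without toxin. The receptor follows Mgl2 and not a single cell type, so CD301b-bearing dendritic cells are targets as well as macrophages.

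Macrophages that settle beside vessels take up plasma proteins, dying cells and matrix fragments through scavenger and lectin receptors, and several of the 10 genes encode such receptors. In white fat, cells of this kind are known to sit along capillaries and to carry the mannose receptor together with CD301b, the target of the depletion here. The liver has its own resident macrophage, the Kupffer cell, which shares part of the receptor set but is known to carry little or no CD301b. Lyve1 and Stab1 are also made by endothelial cells, and Gas6 by stromal and endothelial cells, so these 3 genes do not report on macrophages alone.

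Promoter sequences in the RefSeq table of assembly GRCm38.p6 were found for 8 of the 10 genes, in 10 entries, and Lyve1 and Maf had none there. In the 250 bases before each start, both strands were searched for 3 motifs known from macrophages: the PU.1 core GAGGAAG, the Maf recognition motif TGCTGAC and the AP-1 site TGACTCA. None of these 3 motifs contains another, though TGCTGAC and TGACTCA can share their TGAC. The stretches below are the 100 bases that end at the start, written 5′ to 3′ along the gene, with each motif match in capitals (CTTCCTC is the PU.1 core on the other strand). Folr2 is shown as the gene whose fall in inguinal fat passed the test, Mrc1, F13a1 and Cbr2 as genes with lower values in both fats and a PU.1 core this close to the start, and Gas6 as the gene with the largest positive value in liver. Their positions are chr7:101845332-101845431 on the minus strand (Folr2, second entry), chr2:14229314-14229413 on the plus strand (Mrc1), chr13:37050245-37050344 on the minus strand (F13a1, first entry), chr11:120732022-120732121 on the minus strand (Cbr2) and chr8:13494536-13494635 on the minus strand (Gas6).
Folr2: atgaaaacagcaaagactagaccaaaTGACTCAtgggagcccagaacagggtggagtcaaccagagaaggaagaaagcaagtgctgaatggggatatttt
Mrc1: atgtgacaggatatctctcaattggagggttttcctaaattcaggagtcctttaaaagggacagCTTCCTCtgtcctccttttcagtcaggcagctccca
F13a1: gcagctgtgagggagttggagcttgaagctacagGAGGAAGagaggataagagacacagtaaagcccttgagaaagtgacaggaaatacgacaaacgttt
Cbr2: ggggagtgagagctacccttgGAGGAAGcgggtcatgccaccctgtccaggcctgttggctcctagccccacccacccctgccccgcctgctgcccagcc
Gas6: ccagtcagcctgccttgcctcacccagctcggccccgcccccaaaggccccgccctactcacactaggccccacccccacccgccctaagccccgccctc

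The PU.1 core was found in 4 of the 10 entries, those of Cbr2, F13a1 (first entry), Fcna and Mrc1, and in 10.6% of the 32851 promoters in the table. The Maf recognition motif was found in 1 entry, that of Fcna, and in 3.81% of all promoters. The AP-1 site was found in 1 entry, the second of Folr2, and in 4.46% of all promoters. No match was found in the Gas6 entry, which says only that these letters are not in that window. A match is a description of the sequence and not a bound site.

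The array medians lay between 5.19 and 5.28 on the log2 scale, so the arrays were on a like scale, and precision is limited by the number of arrays. Beyond the word mouse, nothing in the labels says that replicates came from separate animals, so the p-values reflect only how far these samples spread, which may be technical. The labels also do not say whether arrays of different tissues came from the same mice. With genotype and replicate number as a random block across tissues (consensus correlation 0.0201), the Folr2 change kept its call in the mean of both fats (limma adjusted p = 0.0022) and in liver minus fat (0.0115). Cd163, Stab1 and F13a1, called in the mean of both fats without this block, lost their calls (limma adjusted p = 0.0517, 0.0531 and 0.0531). Mgl2, the targeted gene, stood at 7.07 to 7.46 on the 4 fat arrays of wild-type mice and at 4.12 to 4.72 on the 4 fat arrays of Mgl2-DTR mice, which is the order the labels give. In liver it was at 4.03 to 4.59 in both genotypes, below 5.71, the level used to filter dim genes, so the depletion could not be checked there with this gene. Some arrays stood apart. The mean of 12 skeletal muscle genes was 10.07 in inguinal wild-type replicate 2 and 9.70 in inguinal Mgl2-DTR replicate 1, against 6.51 and 6.41 on the other inguinal arrays. The mean of the epididymis and testis genes was 10.54 in epididymal Mgl2-DTR replicate 2, against 3.71 to 3.89 on the other epididymal arrays. In epididymal wild-type replicate 1 the mean of 18 pan-macrophage genes was 10.53, against 9.61 in replicate 2. Levels of different genes are not set against each other below, since probes differ in brightness.

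In wild-type mice, with CD301b-positive cells intact, most of these genes were fat genes more than liver genes. Against the mean of both fats, 8 of 10 were lower in liver at a limma adjusted p under 0.05 (34.0% of all genes tested were) and Fcna alone was higher (23.2% of all genes). Cd163 did not pass. The median difference of the 10 genes was −1.57, beside −0.13 over all 12710 genes. The largest differences were those of the enzymes F13a1, 30.6-fold lower in liver, and Cbr2, 16.3-fold lower. F13a1 was at 5.16 and 4.46 in wild-type liver, below the filter level, so its difference is limited by the floor of the array. The receptors Folr2, Lyve1 and Mrc1 were 3.35-fold, 3.27-fold and 2.86-fold lower in liver, Gas6 was 3.07-fold lower, and Maf and Stab1 were 2.12-fold and 2.09-fold lower. Lyve1 no longer passed without liver wild-type replicate 1 (limma adjusted p = 0.13), nor did Fcna without liver wild-type replicate 2 (0.084).

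**Figure D1:**
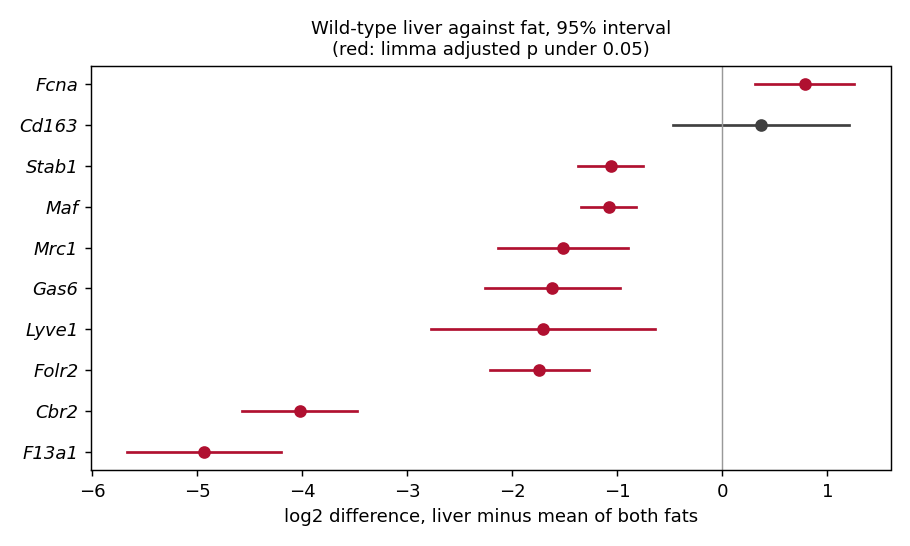
Wild-type liver minus the mean of both wild-type fats for each of the 10 genes, as a log2 difference on the horizontal axis, with the unadjusted 95% confidence interval of the limma fit as a line and red for an adjusted p under 0.05. F13a1 (−4.93) and Cbr2 (−4.02) lie far to the left, 6 genes lie between −1.74 and −1.06, Cd163 (0.37) spans 0 and Fcna (0.78) lies to the right.

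Between the wild-type fats, 0 of the 10 genes passed, where 1.49% of all genes did, and 1 of the 10 had an unadjusted p under 0.05, where 15.7% of all genes had. That gene was Cd163, which was at 8.24 and 8.93 in inguinal fat against 6.76 and 6.50 in epididymal fat, a difference of 1.96 (SE 0.432, limma adjusted p = 0.0689). Both inguinal arrays lay above both epididymal arrays for Cd163, Mrc1, F13a1, Cbr2 and Maf (20.8% of all genes) and below them for Stab1 (25.9% of all genes). The ranges overlapped for Folr2, Lyve1, Gas6 and Fcna.

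The comparison of Mgl2-DTR with wild-type mice asks how these genes respond when CD301b-positive cells are removed. In both fats 8 of the 10 genes, all but Lyve1 and Gas6, were lower on both Mgl2-DTR arrays than on both wild-type arrays. Folr2 in inguinal fat gave the 1 change that passed, 5.40-fold, and in liver most values were slightly higher in Mgl2-DTR mice. The change was negative for 9 of 10 genes in epididymal fat (49.0% of all genes tested), for 10 of 10 in inguinal fat (29.3%) and for 1 of 10 in liver (47.8%). In inguinal fat 1 of 10 was called lower at a limma adjusted p under 0.05, Folr2, where 0.189% of all genes were. There 8 of 10 had an unadjusted p under 0.05, where 6.93% of all genes had. In epididymal fat 0 of 10 passed (0.0315% of all genes did, in either direction), although 7 of 10 had an unadjusted p under 0.05, where 6.98% of all genes had. In liver 0 of 10 passed (0.0708% of all genes did), and 3 of 10 had an unadjusted p under 0.05, where 5.53% of all genes had. The 8 genes with both Mgl2-DTR arrays below both wild-type arrays were the same in the fats, where 14.7% of all genes lay so in epididymal and 10.4% in inguinal fat. In liver both lay above for 4 of 10 genes (19.2% of all genes), Folr2, Mrc1, Maf and Gas6, and for none of the 10 below. The median change of the 10 genes was −0.76 in epididymal fat, −1.21 in inguinal fat and 0.35 in liver, beside 0.0049, 0.10 and 0.011 over all genes tested. In tissue samples, fewer cells of a kind and less RNA per cell cannot be told apart.

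**Figure D2:**
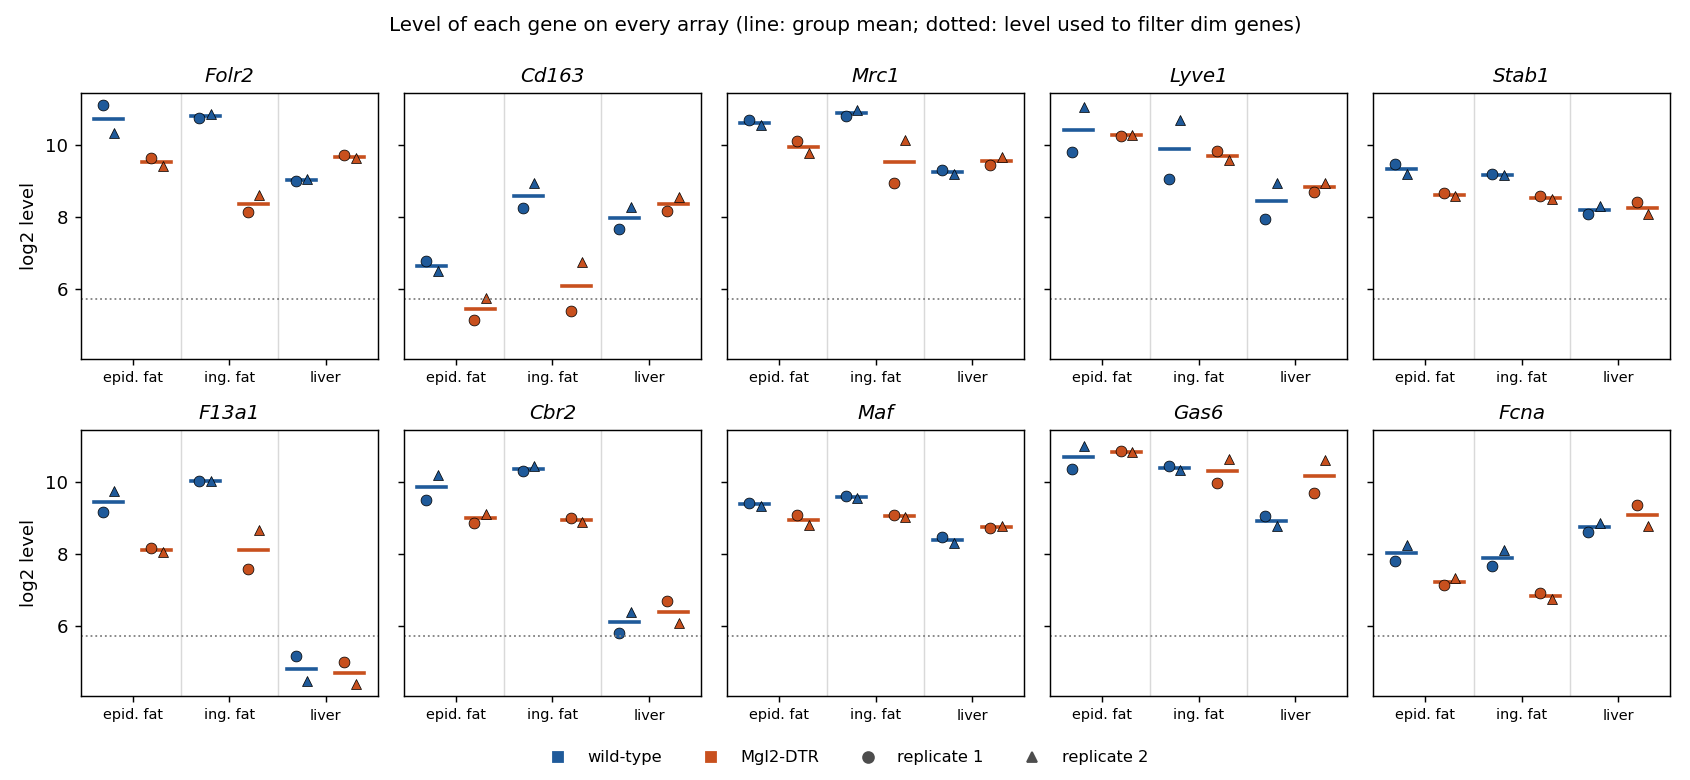
Log2 level of each gene on every array by tissue, with blue for wild-type, orange for Mgl2-DTR, circles for replicate 1, triangles for replicate 2, a line at each group mean and a dotted line at 5.71, the level used to filter dim genes. In both fats the orange points lie below the blue ones except for Lyve1 and Gas6, and in liver F13a1 lies under the dotted line in both genotypes.

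Folr2 encodes folate receptor beta, a folate-binding protein anchored in the membrane of macrophages. Its level was 11.12 and 10.35 in wild-type epididymal fat and 9.65 and 9.42 in Mgl2-DTR epididymal fat. In inguinal fat it was 10.74 and 10.86 in wild-type mice and 8.13 and 8.59 in Mgl2-DTR mice, and in liver 8.999 and 9.05 against 9.73 and 9.62. The genotypes did not overlap in any of the 3 tissues, but they were ordered one way in fat and the other way in liver. In inguinal fat Folr2 fell 5.40-fold (log2 change −2.43, SE 0.243, limma adjusted p = 0.00425). In epididymal fat its change was −1.20 (SE 0.243, adjusted p = 0.36), and in liver it was 0.65 (SE 0.243, adjusted p = 0.777). The inguinal call was lost in 3 of 25 alternative settings, at values of −2.14 without both arrays high in muscle genes (adjusted p = 0.247), −2.37 without inguinal wild-type replicate 2 (0.0666) and −2.43 with the inguinal arrays alone (0.0648). Without epididymal wild-type replicate 2 the epididymal change was −1.58. Without epididymal wild-type replicate 1 and Mgl2-DTR replicate 2, the arrays that stood apart, it was −0.70. From highest to lowest the groups ran inguinal wild-type, epididymal wild-type, Mgl2-DTR liver, epididymal Mgl2-DTR, wild-type liver and inguinal Mgl2-DTR. The first pair overlapped, as did the third and the fourth, while inguinal Mgl2-DTR fat lay below both livers.

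Cd163 encodes the receptor that clears haemoglobin bound to haptoglobin. It was at 6.76 and 6.50 against 5.14 and 5.72 in epididymal fat, wild-type first, and at 8.24 and 8.93 against 5.38 and 6.75 in inguinal fat. In liver it was at 7.67 and 8.27 against 8.16 and 8.54. The genotypes lay apart in both fats and overlapped in liver. The Mgl2-DTR mean in epididymal fat, 5.43, lies under the filter level, where the floor of the array can shrink a change. The change was −2.52 in inguinal fat (SE 0.432, limma adjusted p = 0.0854), the lowest of the 10 genes there, −1.19 in epididymal fat (SE 0.432, adjusted p = 0.71) and 0.38 in liver (SE 0.432). The inguinal change passed in 3 alternative fits, with array weights (adjusted p = 0.0352), with a replicate block (0.0308) and without Mgl2-DTR replicate 2 (0.0181), and it was −1.49 without both muscle-bearing arrays. The inguinal wild-type level and both liver levels overlapped at the top of the order, and the other 3 groups, all from fat, followed with overlap between neighbours.

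Mrc1 encodes the mannose receptor CD206, which binds and internalises mannose-bearing glycoproteins. Wild-type and Mgl2-DTR levels were 10.69 and 10.56 against 10.12 and 9.77 in epididymal fat, 10.82 and 10.98 against 8.93 and 10.13 in inguinal fat, and 9.31 and 9.18 against 9.43 and 9.66 in liver. The genotypes did not overlap in any tissue, again lower in Mgl2-DTR fat and higher in Mgl2-DTR liver. The changes were −0.67 (SE 0.318), −1.36 (SE 0.318, limma adjusted p = 0.316) and 0.30 (SE 0.318), and none passed. The 2 inguinal Mgl2-DTR arrays differed by 1.20. Without Mgl2-DTR replicate 2 the inguinal change was −1.96 and passed (limma adjusted p = 0.00919), and without the muscle-bearing arrays it was −0.69. In the order of groups both wild-type fats stood first without overlap between them, and the spread of the inguinal Mgl2-DTR group covered both livers and overlapped epididymal Mgl2-DTR fat.

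Lyve1 encodes a receptor for the matrix sugar hyaluronan and marks lymphatic endothelium as well as resident macrophages. It stood at 9.79 and 11.06 against 10.26 and 10.29 in epididymal fat, at 9.06 and 10.69 against 9.82 and 9.57 in inguinal fat, and at 7.95 and 8.94 against 8.69 and 8.95 in liver. The genotypes overlapped in all 3 tissues. Wild-type replicates differed by 1.27, 1.63 and 0.99 in the 3 tissues, more than the 0.029, 0.26 and 0.26 between Mgl2-DTR replicates, and this spread made the standard error of Lyve1 the widest of the 10 genes. Its changes were −0.15, −0.18 and 0.38 (SE 0.547 each), and each changed sign when a single wild-type array was left out. The 95% interval of the inguinal change ran from −1.41 to 1.05, so a fall like that of Mrc1 lay within it. The mean of the lymphatic endothelial list (7 genes, 6 tested) was 6.60 to 6.71 in wild-type and 6.92 to 6.96 in Mgl2-DTR inguinal fat. In epididymal fat it was 7.10 to 7.44 and 7.36 to 7.46. In inguinal fat 5 of the 6 tested genes were positive and 0 called. Over all genes 29.3% were negative there, so positive values were the more common. The part of lymphatic endothelial cells in the Lyve1 values was not tested. All 4 fat groups lay above both liver groups, and neighbours within fat overlapped.

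Stab1 encodes stabilin-1, a scavenger receptor for modified lipoproteins and matrix fragments. It was at 9.48 and 9.20 against 8.67 and 8.57 in epididymal fat and at 9.18 and 9.17 against 8.57 and 8.50 in inguinal fat. In liver, where sinusoidal endothelium also makes it, it was at 8.09 and 8.30 against 8.40 and 8.07. Both fats gave a small, narrow difference with no overlap, −0.72 in epididymal fat (SE 0.158, limma adjusted p = 0.51) and −0.64 in inguinal fat (SE 0.158, adjusted p = 0.389), and the liver gave 0.045. Leaving out epididymal wild-type replicate 2 gave an epididymal change of −0.86. Leaving out epididymal wild-type replicate 1 and Mgl2-DTR replicate 2, which stood apart, gave −0.52. Its paralogue Stab2, made mainly by sinusoidal endothelium, was at 8.62 to 8.97 in liver and at 4.49 to 4.91 in fat, under the filter level. The wild-type fats led the order, epididymal above inguinal without overlap, followed by the Mgl2-DTR fats, which met at 8.57, and then both livers.

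F13a1 encodes the A subunit of coagulation factor XIII, a transglutaminase that cross-links fibrin and is made in macrophages. Epididymal levels were 9.18 and 9.75 in wild-type and 8.16 and 8.07 in Mgl2-DTR mice, and inguinal levels were 10.02 and 10.04 against 7.58 and 8.68. In liver, 5.16 and 4.46 against 5.004 and 4.39 were all under the filter level. The fat groups lay apart by genotype in each depot. The change was −1.90 in inguinal fat (SE 0.375, limma adjusted p = 0.168) and −1.34 in epididymal fat (SE 0.375, adjusted p = 0.688), the lowest of the 10 genes there. The inguinal change passed with array weights (adjusted p = 0.048) and without Mgl2-DTR replicate 2 (0.0477), and was −1.35 without the muscle-bearing arrays. The order was inguinal wild-type, epididymal wild-type, the overlapping Mgl2-DTR fats, then both livers.

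Cbr2 encodes a carbonyl reductase of the short-chain dehydrogenase family that is used as a marker of resident macrophages. It was at 9.51 and 10.21 against 8.88 and 9.11 in epididymal fat, at 10.31 and 10.45 against 8.9998 and 8.90 in inguinal fat, and at 5.82 and 6.38 against 6.69 and 6.09 in liver. Fat again separated the genotypes and liver did not. The changes were −0.86 (SE 0.281), −1.43 (SE 0.281, limma adjusted p = 0.167) and 0.29 (SE 0.281). With array weights the inguinal change passed (adjusted p = 0.0288). In the order of groups inguinal wild-type fat (mean 10.38) led epididymal wild-type fat (9.86) without overlap, the Mgl2-DTR fats (8.996 and 8.95) overlapped below them, and both livers followed.

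Maf encodes c-Maf, a basic leucine zipper transcription factor of resident macrophages. Its brighter probe gave 9.41 and 9.35 against 9.08 and 8.80 in epididymal fat, 9.62 and 9.55 against 9.09 and 9.03 in inguinal fat, and 8.49 and 8.32 against 8.74 and 8.78 in liver. These were small and tight differences, with no overlap in any tissue. The changes were −0.44, −0.53 and 0.35 (SE 0.135 each), with limma adjusted p-values of 0.688, 0.415 and 0.803. A second, dimmer probe gave changes of −0.23, −0.34 and 0.50, in the same directions. The wild-type fats led the order, the Mgl2-DTR fats overlapped below them, and the wild-type liver was lowest.

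Gas6 encodes a secreted ligand that bridges dying cells to the receptors Tyro3, Axl and Mertk. It was at 10.36 and 11.03 against 10.87 and 10.83 in epididymal fat and at 10.45 and 10.34 against 9.98 and 10.65 in inguinal fat, with overlap in both. In liver it was at 9.08 and 8.78 in wild-type mice and at 9.71 and 10.63 in Mgl2-DTR mice, with no overlap. Of the 10 genes Gas6 had the highest change in liver, while its fat groups overlapped. The liver change was 1.24 (SE 0.331, limma adjusted p = 0.552), and the Mgl2-DTR arrays behind it differed by 0.92. The fat changes were 0.16 and −0.083 (SE 0.331 each), and both changed sign when single arrays were left out. All groups but the wild-type liver overlapped with their neighbours in the order, and the wild-type liver lay below all others.

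Fcna encodes ficolin A, a secreted pattern recognition protein that starts the lectin pathway of complement. It stood at 7.80 and 8.26 against 7.14 and 7.33 in epididymal fat, at 7.66 and 8.11 against 6.92 and 6.75 in inguinal fat, and at 8.63 and 8.86 against 9.38 and 8.79 in liver. The fats lay apart by genotype and the livers overlapped. The changes were −0.80 (SE 0.242, limma adjusted p = 0.688), −1.05 (SE 0.242, adjusted p = 0.297) and 0.34 (SE 0.242). Both livers stood above all fats in the order, and the inguinal Mgl2-DTR group was lowest, apart from the epididymal one.

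**Figure D3:**
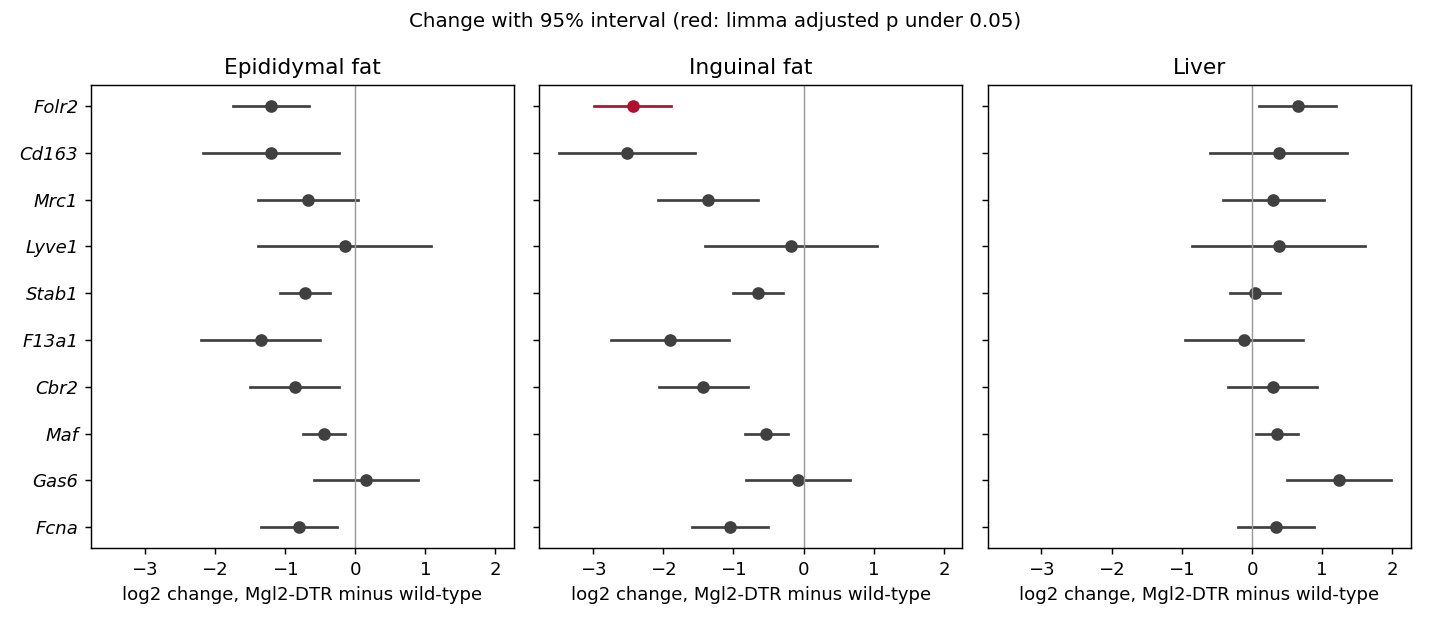
Log2 change, Mgl2-DTR minus wild-type, of the 10 genes in epididymal fat, inguinal fat and liver, with the unadjusted 95% confidence interval of the limma fit as a line and red for an adjusted p under 0.05. Folr2 in inguinal fat (−2.43) is the 1 called change, fat values run from −2.52 to 0.16 and liver values from −0.11 to 1.24.

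Averaged over both fats, limma called 4 of 10 genes lower (0.299% of all genes were): Cd163, Folr2, F13a1 and Stab1. Folr2 fell by 1.82 on the log2 scale (SE 0.172, limma adjusted p = 0.00207), or 3.52-fold. Cd163 fell by 1.86 (SE 0.305, adjusted p = 0.0489), F13a1 fell by 1.62 (SE 0.265, adjusted p = 0.0485) and Stab1 fell by 0.68 (SE 0.112, adjusted p = 0.0489). The last 3 sit at the threshold. Over 24 alternative settings, Cd163 and F13a1 each lost the call in 16 and Stab1 in 18, while Folr2 lost it in 1, without both muscle-bearing arrays (adjusted p = 0.0558). Cbr2 (−1.15, adjusted p = 0.0629), Fcna (−0.92, 0.0861), Maf (−0.49, 0.104) and Mrc1 (−1.02, 0.175) did not pass, and Lyve1 (−0.16) and Gas6 (0.036) were near 0. The median of the 10 genes was −0.97, beside 0.054 over all genes. The count ran from 1 to 7 when single arrays were left out, with 7 without epididymal wild-type replicate 2, 2 without epididymal wild-type replicate 1 and 1 without epididymal Mgl2-DTR replicate 2, inguinal wild-type replicate 1 or 2, inguinal Mgl2-DTR replicate 1 or any of the liver arrays.

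Whether the fats differed in their response was tested as the inguinal minus the epididymal change. At an adjusted p under 0.05, limma called 0 of the 10 genes and 0 of the 12710, and 364 genes (2.86%) had an unadjusted p under 0.05. Among the 10 genes that was Folr2 alone, with a difference of −1.24 (SE 0.344, limma adjusted p = 0.995). The difference was negative for 9 of 10 genes (33.9% of all genes), with a median of −0.41 beside 0.10 over all genes. A larger change in inguinal than in epididymal fat was thus called for none of the 10 genes.

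The liver change minus the mean fat change was called for Folr2, at 2.47 (SE 0.298, limma adjusted p = 0.0127), 1 of 10 genes where 0.181% of all genes were higher. It was positive for all 10 genes, while 56.9% of all genes were negative, and 9 of 10 had an unadjusted p under 0.05, where 7.94% of all genes had. The median was 1.29, beside −0.045 over all genes, and the wild-type and Mgl2-DTR fat values enter both this difference and the fat changes above. After Folr2, Cd163 (2.23), F13a1 (1.51), Cbr2 (1.44) and Mrc1 (1.32) had the highest values, and their limma adjusted p-values were 0.266, 0.414, 0.267 and 0.411. The Folr2 call was lost in 5 of 23 alternative settings, without any 1 of the 4 liver arrays (adjusted p = 0.0721 to 0.101) and without both muscle-bearing arrays (0.111).

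Other genes related to resident macrophages were described with a list of 33, of which 28 were tested. The list shares genes with others below, among them Csf1r with the pan-macrophage list and Vsig4 and Slc40a1 with the Kupffer cell list. Counts from these lists are therefore not separate. At a limma adjusted p under 0.05, 4 of 28 were called lower in epididymal fat (0.0315% of all genes were called) and 7 in inguinal fat (0.189%). In liver 0 were called (0.0708% of all genes were, in either direction), and none was called higher in any of the 3 tissues. The change was negative for 24 of 28 in epididymal fat (49.0% of all genes) and for 23 in inguinal fat (29.3%). In liver it was positive for 21 of 28, where 47.8% of all genes were negative. The list holds Mgl2, the targeted gene, and was chosen with earlier results known, so its direction is not independent evidence. The list's median change was −0.56, −0.58 and 0.18 in these tissues. In the mean of both fats the steepest were Retnla, which encodes a secreted resistin-like protein of alternatively activated macrophages, and Cd209g, a lectin of the DC-SIGN family. Retnla was at 10.44 to 10.97 on the 4 wild-type fat arrays, at 7.90 and 6.53 in Mgl2-DTR epididymal fat and at 5.88 and 6.09 in Mgl2-DTR inguinal fat. It fell by 3.32 in epididymal fat (SE 0.395, limma adjusted p = 0.0371) and by 4.86 in inguinal fat (SE 0.395, adjusted p = 0.00179). The change of Cd209g was −2.63 in epididymal and −4.28 in inguinal fat (SE 0.309 each), that of Mgl2 itself −3.12 and −2.80 (SE 0.243 each), and that of Fcrls, of the Fc receptor-like family, −1.71 and −2.51 (SE 0.197 each). All 3 fell in both fats at limma adjusted p-values of 0.0371 or lower. Cd209g (3.79 to 4.30) and Mgl2 (4.12 to 4.72) were under the filter level of 5.71 on all 4 Mgl2-DTR fat arrays, so the floor of the array limits the size of their changes. In liver all 4 genes were under that level in both genotypes. The 3 others called lower in inguinal fat, named after their values were seen, were the chemokine Ccl8, the lectin Clec10a and the iron exporter Slc40a1.

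Partners of the 10 genes in their pathways gave no called change in any tissue or in the mean of both fats. Among 13 tested genes of scavenging, the highest liver value was that of the bacterial scavenger receptor Marco, which was at 7.50 and 7.17 in wild-type liver and 8.78 and 8.48 in Mgl2-DTR liver, a change of 1.30 (limma adjusted p = 0.0863). Slco2b1, an organic anion transporter, was at −0.64 in epididymal fat (adjusted p = 0.688). Among 10 tested genes around Gas6, the receptor Axl was at 0.45 in liver (adjusted p = 0.885) and Timd4, a receptor for dying cells, was at −0.57 in the mean of both fats (adjusted p = 0.488). Of 11 tested relatives in folate binding, the lectin pathway and factor XIII, the B subunit gene F13b was at 0.46 in liver (adjusted p = 0.917) and the lectin gene Mbl2 at 0.32 in inguinal fat (adjusted p = 0.72). Of 15 tested Maf family and other macrophage transcription factors, Spi1, which encodes PU.1, was at −0.61 in the mean of both fats (adjusted p = 0.507) and Mafa at 0.33 in inguinal fat (adjusted p = 0.684).

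Markers of macrophages in general had medians of the same sign as the 10 genes in all 3 tissues. The mean of 18 pan-macrophage genes was 9.61 to 10.53 in wild-type and 9.02 to 9.24 in Mgl2-DTR epididymal fat, 9.29 to 9.46 and 8.05 to 8.82 in inguinal fat, and 8.08 to 8.18 and 8.65 to 8.68 in liver. In epididymal fat 18 of 18 were negative with 0 called. In inguinal fat 16 were negative, and C1qa, C1qb and C1qc were called lower (0.189% of all genes were). In liver 18 of 18 were positive with 0 called, where 47.8% of all genes were negative. Their medians, −0.92, −0.81 and 0.55, stood beside −0.76, −1.21 and 0.35 for the 10 genes. In the mean of both fats 4 of 18 were called lower (0.299% of all genes were). The liver change minus the mean fat change was positive for 18 of 18, with a median of 1.48 beside 1.29 for the 10 genes. It was called for C1qa, C1qb and C1qc (0.181% of all genes were higher). In liver the Kupffer cell list averaged 8.12 to 8.35 in wild-type and 8.79 to 8.87 in Mgl2-DTR mice, and 9 of 9 tested genes were positive with 0 called (median 0.69). Blood endothelial genes had the opposite sign to the 10 genes in fat, with 13 of 13 positive in each depot, 0 called, and medians of 0.21 and 0.42. Over all genes 49.0% were negative in epididymal fat and 29.3% in inguinal fat, so in inguinal fat positive values were the more common. Lipid-associated macrophage genes had the sign of the 10 genes in fat: 11 of 11 tested were negative in epididymal fat (median −0.92) and 10 of 11 in inguinal fat (median −0.57), with 0 called. Their mean was 9.62 to 11.07 in wild-type and 9.29 to 9.67 in Mgl2-DTR epididymal fat, which overlap, and 8.98 to 8.99 against 8.19 to 8.25 in inguinal fat. Fibro-adipogenic progenitor genes, 11 tested with 0 called, were negative for 3 in epididymal fat (median 0.17) and for 9 in inguinal fat (median −0.29). The part of macrophage number, or of other cells, in the changes of the 10 genes was not tested.

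**Figure D4:**
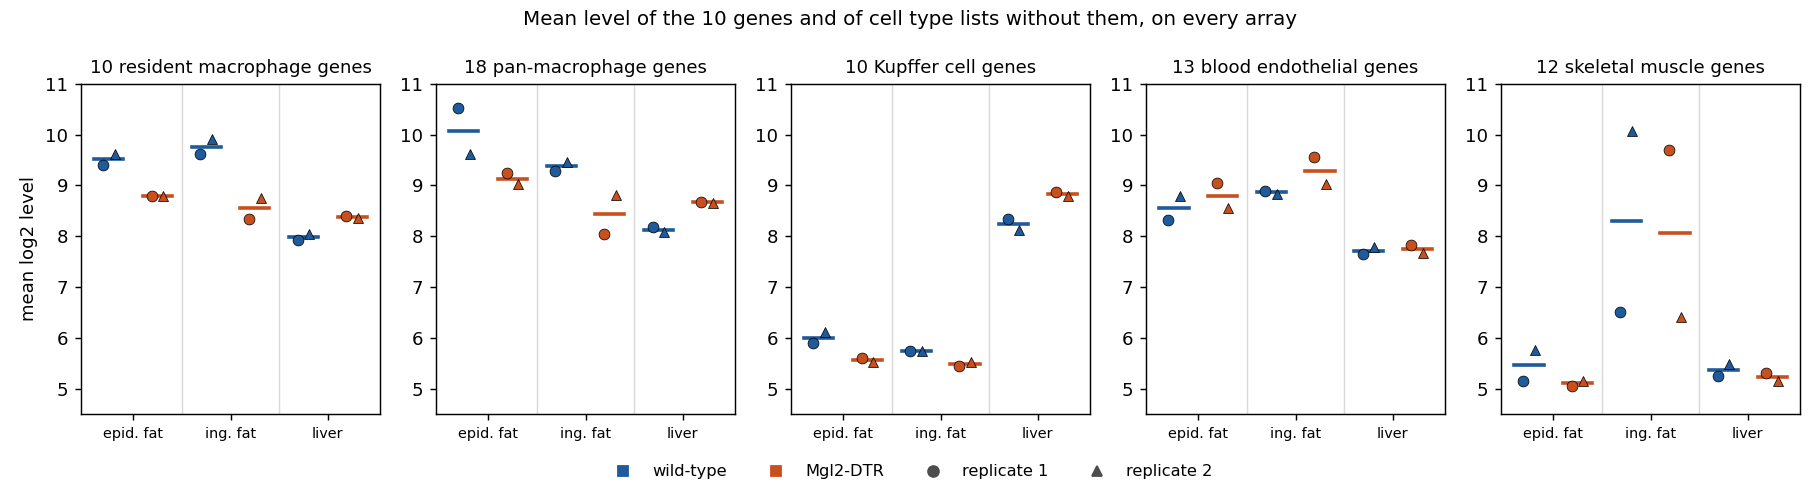
Mean log2 level on every array of the 10 genes and of 4 cell type lists from which they were left out, by tissue and genotype, with circles for replicate 1, triangles for replicate 2 and lines for group means. The 10 genes and the pan-macrophage genes lie lower in Mgl2-DTR fat and higher in Mgl2-DTR liver, and the muscle genes reach 10.07 and 9.70 on 1 inguinal array of each genotype.

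The mean of the 10 genes was 9.41 and 9.63 against 8.80 and 8.79 in epididymal fat, 9.61 and 9.91 against 8.34 and 8.76 in inguinal fat, and 7.92 and 8.05 against 8.39 and 8.35 in liver. The genotypes did not overlap in any tissue. Likeness of pattern was measured as the root-mean-square difference over the 12 arrays between levels centred on their own mean, so a small value is a close match, among 11866 tested genes outside the 10, with predicted genes, small RNAs and clone names left out. Stard8 (0.219), Gab3 (0.233), Tent5a (0.257), Stk17b (0.276) and H2-Eb1 (0.277) came closest to the mean of the 10 genes. The nearest gene to Folr2 was C1qb, which encodes a chain of complement C1q, at 0.188. For Mrc1 it was Slc9a9 (0.278), for Cbr2 Pf4 (0.456), for F13a1 Col1a2 (0.547), for Fcna Ninj1 (0.329) and for Cd163 Cyp2b10 (0.727). For Stab1 it was Nfatc2 (0.138), for Maf Stard3nl (0.121), for Lyve1 Chrnb1 (0.366) and for Gas6 Golph3l (0.297). Among the 10 genes themselves Stab1 and Maf were the closest pair (0.211), and the nearest to Cd163, Fcna, lay at 0.881. The measure was not scaled to how much a gene varies, so genes that vary little score low. The root-mean-square spread of a gene around its own mean was 0.447 for Stab1 and 0.396 for Maf. It was 1.25 for Cd163 and 2.11 for F13a1. The 12 arrays share tissues and genotypes, so the differences between genes describe how alike their levels were on these arrays. They are not evidence of a shared role.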

How the data were processed

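The deposited values are log2 levels, 1 column per array, of an Affymetrix mouse gene array. The submitters' processing notes name limma, and how background was corrected and probes were normalized or summarized was not given in the sources used here. Per the labels' protocols, tissue was homogenized in Trizol and total RNA was DNase-treated, purified and labelled with biotin. Of 41345 probes, 23521 carry 1 gene symbol in the platform annotation, 1814 several and 16010 none that is listed. For each of 22180 genes the brightest single-symbol probe was used, and 12710 genes were tested, those with a 4-array mean in some tissue above 5.71, the median single-symbol value. Values below that level may be at background.

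The model, 1 mean per group over all 12 arrays, was fitted in limma 3.58.1 (R 4.3.3) with 6 residual and 3.35 prior degrees of freedom. The 8 comparisons were two-sided, with Benjamini-Hochberg adjustment over the genes tested and calls at an adjusted p under 0.05. The fit was also run on simulated data with independent normal noise and changes set in inguinal fat only. No simulated array was made to stand apart, so this run does not bear on the arrays that did. Intervals are at 95% and unadjusted. Figures were drawn with matplotlib 3.10.9. The members and the gene lists were chosen with earlier results of these data known. The genes named are the 10, then of each related or partner list up to 4 called genes with the smallest p, or 2 where none was called, and the genes of nearest pattern. Gene symbols and promoters come from RefSeq, GRCm38.p6. Within a tissue the replicate numbers were not taken to pair the genotypes, since the deviations of same-numbered arrays had correlations of 0.0529 in epididymal fat, −0.121 in inguinal fat and 0.0878 in liver. Alternatives were other filters, the next probe, quantile normalization again, other variance models, array weights, blocks, a muscle covariate, fewer arrays, leaving out each array, and an adjusted p under 0.10.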

Additional observations from a re-analysis of the deposited data

Results flagged for a closer look

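Of the 10 genes Folr2 alone was called when the change was tested between liver and fat. Its liver change minus the mean of its fat changes was 2.47 on the log2 scale (SE 0.298, limma adjusted p = 0.0127). The call was lost in 5 of 23 alternative settings, when any single liver array or both muscle-bearing arrays were left out. The difference was positive for all 10 genes, and 9 of 10 had an unadjusted p under 0.05 (7.94% of all genes had). Folr2 was lower on both Mgl2-DTR arrays in each fat and higher on both in liver.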

How the results depend on the processing

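Depth on these arrays is signal over background: Cd163 in Mgl2-DTR epididymal fat and F13a1 in liver lie at or under the filter level, which limits their changes. With 2 arrays per group, single arrays weigh on every call, and where a group kept 1 array that array was assumed to vary like the other groups. The count of 1 called gene in inguinal fat became 4 with array weights (Folr2, Cd163, F13a1 and Cbr2), 2 with a replicate block (Folr2 and Cd163), 2 at an adjusted p under 0.10, 0 without both muscle-bearing inguinal arrays and 0 with the inguinal arrays alone. A crossed replicate block there, chosen after seeing the data, called 1 of the 10 genes and 24 genes in all. Apart from Cd163 there, the replicate block changed 1 call of the 10 genes, that of Stab1 in the mean of both fats (adjusted p = 0.102). In the mean of both fats the count rose from 4 to 5 with the dim filter at the 75th percentile or with quantile normalization again. It rose to 6 at an adjusted p under 0.10. The 4 called in the mean of both fats became 1 with no filter on dim genes, array weights, a random block, the muscle covariate or the fat arrays alone, 2 without the epididymal arrays that stood apart, and 0 without the muscle-bearing arrays. The difference between liver and fat had 0 calls without the muscle-bearing arrays, and the difference between wild-type fats had 1 (Cd163) at an adjusted p under 0.10. Leaving out single arrays gave 0 to 2 calls in epididymal fat (2 without wild-type replicate 2), 0 to 4 in inguinal fat (0 when inguinal wild-type replicate 2 was left out, 4, with Mrc1 among them, when inguinal Mgl2-DTR replicate 2 was), 1 to 7 in the mean of both fats, 0 to 2 for liver against fat (0 without any liver array, 2 without epididymal wild-type replicate 2, epididymal Mgl2-DTR replicate 1 or inguinal Mgl2-DTR replicate 2) and 0 to 1 between wild-type fats (1, Cd163, without either inguinal Mgl2-DTR array). Signs turned for changes near 0: Gas6 in epididymal fat was −0.16 without the epididymal arrays that stood apart, and in inguinal fat, without the muscle-bearing arrays, Lyve1 was 0.51 and Gas6 0.19. Over single arrays left out, Lyve1 ran from −0.78 to 0.48 in epididymal fat, −0.995 to 0.64 in inguinal fat and −0.12 to 0.87 in liver. Gas6 ran from −0.18 to 0.49 in epididymal and −0.42 to 0.25 in inguinal fat, and in liver Stab1 ran from −0.12 to 0.21, F13a1 from −0.46 to 0.23 and Cbr2 from −0.0087 to 0.60. The cause of these shifts was not tested.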
